A study of Mus musculus with 27 samples.

Results

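The cytochrome P450 genes of families 1 and 2 were examined in mouse liver after partial hepatectomy. The members were all rows of the deposited gene table annotated as protein-coding whose symbol was Cyp1 or Cyp2 followed by a subfamily letter and a number, which gave 51 genes of the 54532 in the table. The symbols of 22 further Cyp1 and Cyp2 rows, mostly pseudogenes, lay outside this rule. Of the 51 members, 35 passed the filter on low values (FPKM, fragments scaled by gene length and library size, of at least 1 in at least 4 libraries) and were tested among 12376 genes. The other 16 are described by their ranges.

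The livers came from wild-type C57/BL6J mice, and polyadenylated RNA was sequenced from 27 samples in 5 groups. The sham group had a sham operation and no resection (5 libraries), with no sampling time in the labels. The groups PHx24 and PHx48 were sampled 24 h and 48 h after surgical removal of 70% of the liver (7 libraries each). PHx24_ETO and PHx48_ETO (4 libraries each) had the same resection with 12.5 mg/kg of etomoxir, an inhibitor of mitochondrial fatty acid import by carnitine palmitoyltransferase 1, injected into the peritoneum 4 h before surgery. The PHx48_ETO mice had another dose 24 h after surgery. No sham group with etomoxir was analysed here, so an effect of the drug without resection cannot be told apart from an effect on the resected liver. Neither the sex and age of the mice nor a vehicle for the untreated groups is given in the sources used here. Nothing says that libraries of a group came from separate animals, so each p-value refers only to the spread among libraries, part of which may be technical.

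P450 enzymes are heme-containing monooxygenases anchored in the endoplasmic reticulum, where they take electrons from cytochrome P450 reductase and insert 1 atom of oxygen into drugs, pollutants, steroids, bile acids and fatty acids. Families 1 and 2 hold most of the drug-metabolising P450s of the hepatocyte. Many of them are most abundant around the central vein, several differ between male and female liver, and a few are induced through the receptors AHR, CAR and PXR.

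Total counts lay between 14903757 and 18446372 per library, and 0.518% to 1.62% of them fell on the members. All 8 hepatocyte markers were present in every group. Skeletal muscle markers summed to 3675 FPKM in sham 1, 1455 in PHx24 1 and 449 in PHx48 3, and to 55.6 in sham 2 and 68.7 in PHx48_ETO 4, beside at most 9.42 in the other libraries. Adipocyte markers were also highest in sham 1 (218), PHx48 3 (154) and PHx24 1 (72.8), pancreas markers in sham 2 (733) and PHx48 3 (114), and gut markers in sham 2. The libraries PHx24 2 and PHx24_ETO 2 stood apart in the members themselves and are described at the end. Sham 1, sham 2, PHx24 1 and PHx48 3 were left out together as an alternative and are called the 4 libraries with other tissue.

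The part of the sequence that makes a gene a P450 is the heme-binding loop, in which a cysteine holds the heme iron. A search of the longest coding sequences of GENCODE M21 (GRCm38) for this signature found it in 49 of the 51 members, and not in these letters in Cyp2b10 and Cyp2s1. The 30 coding bases of the loop are shown for 6 members that the results below turn on, 5′ to 3′, with the cysteine codon in capitals.
Cyp1a1: tttggtttgggcaagcgaaagTGCatcgga
Cyp2a4: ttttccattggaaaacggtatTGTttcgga
Cyp2b9: ttctccacaggaaagcgcattTGTcttggt
Cyp2e1: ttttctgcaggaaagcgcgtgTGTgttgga
Cyp2f2: ttttcggctggacgtcgactgTGTctggga
Cyp2u1: tttgggatagggaagcgggtgTGTatggga
The codon lies at residue 461 of Cyp1a1, 439 of Cyp2a4, 436 of Cyp2b9 and Cyp2f2, 437 of Cyp2e1 and 476 of Cyp2u1.

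Members differed in level by several orders of magnitude on the FPKM scale, which is per length. The mean over all libraries was at least 100 FPKM for 16 members, 10 to 100 for 6, 1 to 10 for 11 and below 1 for 18. In sham liver Cyp2e1, which oxidises ethanol and paracetamol, made up 30.5% of the summed FPKM of all members. The steroid hydroxylase Cyp2d9 followed with 8.49%, then Cyp2f2 with 7.91% and Cyp2d10 with 7.34%. The 7 highest members together made up 72.0%. Cyp2e1 also had the highest mean in each of the other 4 groups.

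The summed FPKM of the members was lower in each resected group than in sham. It was 7660.0 ± 753 (SD, n = 5) in sham, 5476 ± 1011 (n = 7) in PHx24 and 4222 ± 816 (n = 7) in PHx48. With etomoxir it was 4621 ± 1668 (n = 4) at 24 h and 4214 ± 753 (n = 4) at 48 h. The lowest sham library, at 6547, lay above the highest of PHx24, at 6399, and of PHx48, at 5291, while PHx24 and PHx48 overlapped. As a share of all counts the members had 1.53% ± 0.0846 in sham, 1.23% ± 0.228 in PHx24 and 1.015% ± 0.146 in PHx48, and neither sum was tested. On that scale the lowest sham library, at 1.42%, lay below the highest of PHx24, at 1.45%, and above the highest of PHx48, at 1.19%. On TPM the sham libraries likewise overlapped PHx24 and not PHx48. The 8 hepatocyte markers summed to 29355 to 65058 FPKM in sham, 23558 to 31937 in PHx24 and 28503 to 40869 in PHx48. Sinusoidal endothelial markers summed to 25.6 to 33.3 in sham, 16.9 to 22.9 in PHx24 and 12.3 to 22.3 in PHx48. Their part in the members' sums was not tested. In whole tissue, fewer hepatocytes of a zone and less RNA per cell cannot be told apart.

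**Figure D1:**
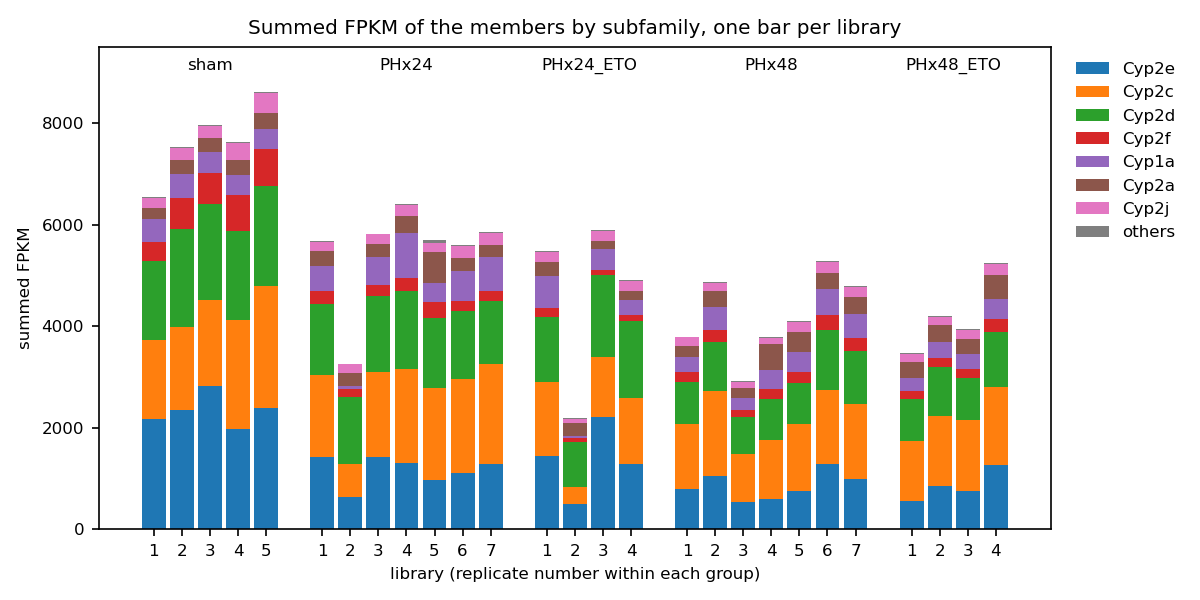
Summed FPKM of the members in each of the 27 libraries (x axis, replicate number within each group), stacked by subfamily (y axis, FPKM). The 5 sham bars stand highest, between 6547 and 8620.0, and the bars of PHx24 2 at 3262 and PHx24_ETO 2 at 2193 stand below the others of their groups.

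At 24 h after resection, 21 of the 35 tested members passed the test against sham (edgeR quasi-likelihood test, Benjamini-Hochberg adjusted p below 0.05 over all 12376 genes). Of these 8 were higher and 13 lower, 22.9% and 37.1% of the tested members. Over all genes tested, 19.1% were higher, 15.8% lower and 35% either. The median log2 fold change of the members was -0.32, against 0.01 over all genes tested. At 48 h, again 21 members passed, 6 higher and 15 lower (17.1% and 42.9%), beside 19.5% higher, 17% lower and 36.5% either over all genes. The median was -0.52 against 0.01. Both comparisons share the 5 sham libraries, so their values stand side by side and the second is not independent of the first. The scaling moves these numbers: on TPM, which makes every library sum to the same total, the median of all genes shifted up by 0.19 at 24 h and 0.32 at 48 h. The split of all calls then became 3797 higher and 896 lower at 24 h, from 2366 and 1960, and 5687 and 655 at 48 h, from 2410 and 2103. The members on TPM were 9 higher and 11 lower at 24 h and 7 and 12 at 48 h, with medians of -0.18 and -0.19. Among the members called higher, Cyp2a4, Cyp2a22, Cyp2b9, Cyp2c39 and Cyp2g1 reached at most 0.834, 0.336, 0.206, 0.424 and 0.441 FPKM in sham. They passed the filter only through resected libraries and could hardly be called lower. In sham, Cyp2b10 was above 1 FPKM only in sham 2 (4.25), and Cyp1a1 only in sham 1 (1.44) and sham 2 (2.99). These also needed resected libraries to pass. Of the members called higher, that leaves Cyp2c29 and Cyp2c55 at 24 h and Cyp2c55 at 48 h. The counts and shares of higher members therefore lean upwards.

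**Figure D2:**
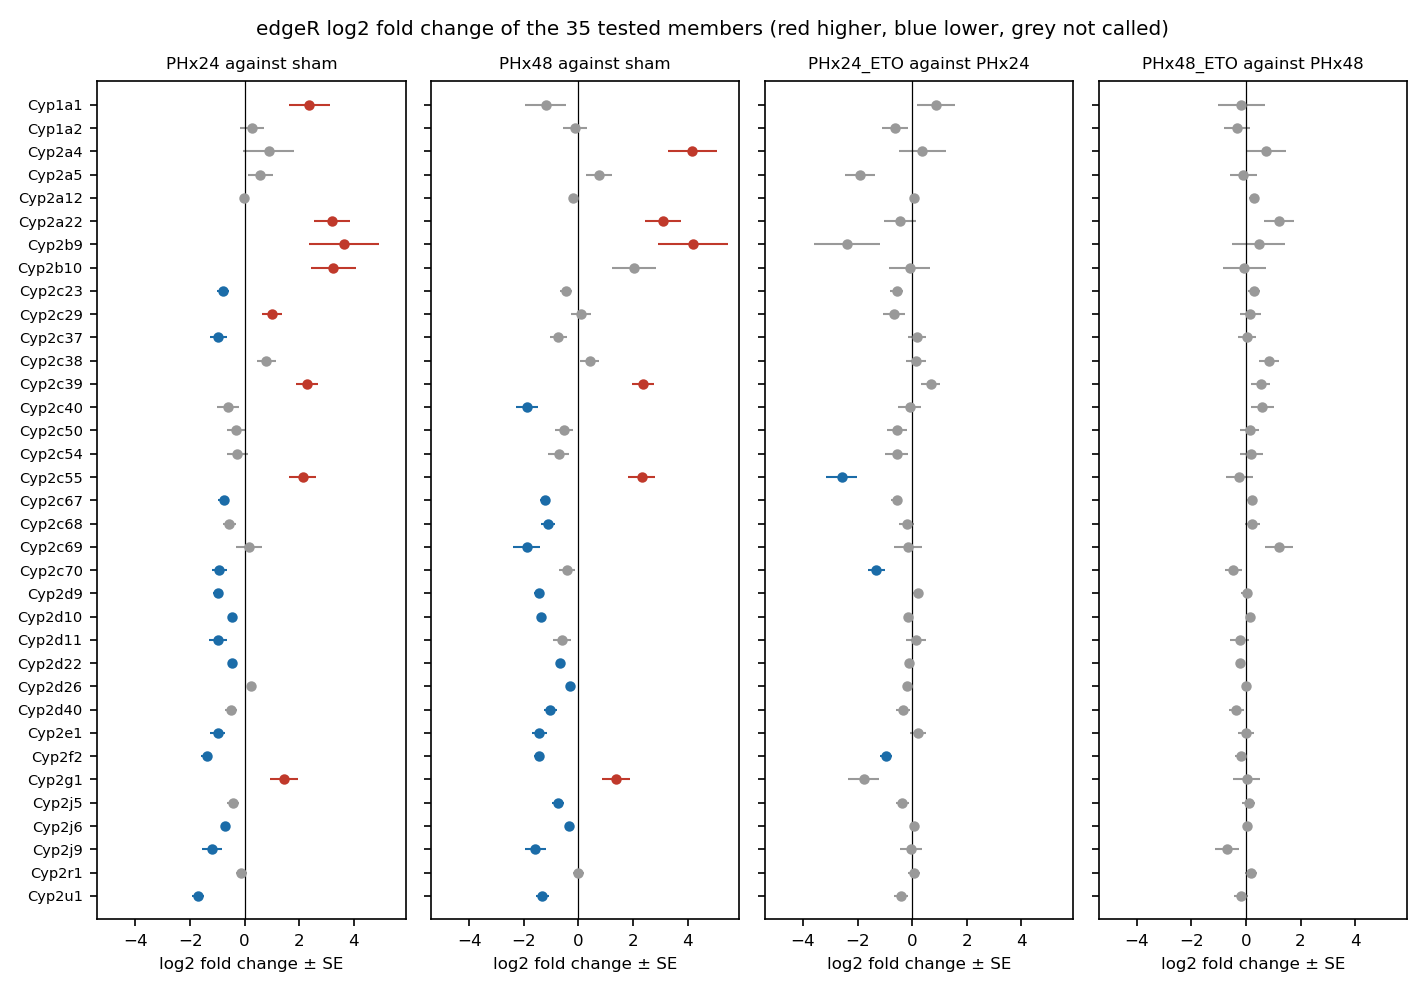
Log2 fold change with its standard error (x axis) of the 35 tested members (y axis) in 4 comparisons, from edgeR. Red points passed the test upwards, blue points downwards and grey points did not pass. Against sham most Cyp2d, Cyp2e, Cyp2f, Cyp2j and Cyp2u points lie left of 0 and Cyp2a22, Cyp2b9 and Cyp2b10 right of it. In the etomoxir comparisons 3 points are coloured at 24 h and none at 48 h.

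The members that fell included the most abundant ones. Cyp2e1 (chr7:140763739-140774987, GRCm38) had FPKM of 2172, 2345, 2817, 1979.6 and 2385 in the sham libraries. It ranged from 624.8 through a median of 1282 to 1422 in PHx24, and from 543 through 797 to 1290.2 in PHx48. Neither PHx24 nor PHx48 overlapped the sham group. The log2 fold change was -0.99 ± 0.27 (SE, adjusted p = 0.0053, edgeR) at 24 h and -1.43 ± 0.27 (adjusted p = 0.00016) at 48 h.

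Cyp2f2, which activates naphthalene and in liver is most abundant around the portal vein, fell by a similar amount. Its sham FPKM were 381, 611, 606, 711 and 719. They were 154, 228 and 308 (lowest, median and highest) in PHx24 and 134, 225 and 284 in PHx48. The groups did not overlap, and the log2 fold changes were -1.38 ± 0.20 and -1.44 ± 0.20 (adjusted p = 8.53e-06 and 3.59e-06, edgeR). An annotated antisense gene overlaps Cyp2f2. The library kit and the notes used here do not state strand, so reads of the pair cannot be told apart.

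The Cyp2d genes lie in 1 cluster on chromosome 15 (chr15:82370527-82794294), with 8 members of which 6 were tested. At 24 h 4 of the 6 fell and at 48 h 5, with none higher. Of all genes tested, 15.8% were lower at 24 h and 17% at 48 h, and 19.1% and 19.5% were higher. Cyp2d9, a testosterone hydroxylase typical of male liver, had 566, 738, 633, 627 and 688 FPKM in sham. Its lowest, median and highest values were 249.2, 332 and 408 in PHx24 and 169, 222 and 333 in PHx48, with no overlap with sham. The log2 fold changes were -0.97 ± 0.17 and -1.44 ± 0.18 (adjusted p = 0.000116 and 6.37e-07, edgeR).

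Cyp2d10, another member of the cluster, separated the 2 times. The sham libraries held 449, 536, 605, 529 and 694 FPKM, PHx24 371, 418 and 444, and PHx48 166, 203 and 285. All 3 groups stood apart without overlap, and Cyp2d10 fell from 24 h to 48 h by -0.91 ± 0.12 (adjusted p = 1.003e-05, edgeR). At 48 h it stood -1.36 ± 0.13 from sham (adjusted p = 1.43e-08). Cyp2d10 shares 11.7% of its 100-base transcript windows with another gene, most of them with Cyp2d11, so its value is partly uncertain. Of the cluster, Cyp2d40 fell at 48 h (-1.03 ± 0.24, adjusted p = 0.00122), and did not pass at 24 h (-0.50 ± 0.24, adjusted p = 0.104).

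Cyp2d26, the most abundant cluster member after resection, differed in sign between the times. In sham it had 425, 513, 504, 482 and 474 FPKM, in PHx24 487, 560.2 and 625.3, and in PHx48 317, 387 and 473. It stood above sham at 24 h by 0.24 ± 0.12 without passing the test (adjusted p = 0.118) and below it at 48 h by -0.33 ± 0.12 (adjusted p = 0.0337, edgeR). The 48 h call was lost in 7 alternatives and turned to 0.021 on TPM. The step from 24 h to 48 h, -0.57 ± 0.11 (adjusted p = 0.000977), passed in all 25 alternatives run.

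The Cyp2j cluster on chromosome 4 (chr4:96027534-96664154) holds 8 members, of which 3 were tested. These enzymes epoxidise and hydroxylate arachidonic acid. Cyp2j5, the most abundant, had 181, 218, 221, 301 and 366 FPKM in sham, 153, 178 and 229 in PHx24 and 109, 153 and 192 in PHx48. Sham overlapped both resected groups, and Cyp2j5 fell at 48 h (-0.75 ± 0.22, adjusted p = 0.00828, edgeR; not passing on TPM) and did not pass at 24 h (-0.44 ± 0.22, adjusted p = 0.119). Cyp2j9 fell at both times, from 5.97, 4.49, 5.91, 3.81 and 2.26 FPKM in sham to 0.516, 2.20 and 2.69 in PHx24 and 0.932, 1.47 and 1.99 in PHx48. The lowest sham library lay within the PHx24 range and above all of PHx48. The separation from PHx48 rests on the FPKM scaling: sham 5 had 99 counts of 16455877, and PHx48 5 had 106 of 16378989. Its log2 fold changes were -1.20 ± 0.38 (adjusted p = 0.0161) and -1.58 ± 0.38 (adjusted p = 0.00203), and without the 4 libraries with other tissue the 24 h call had adjusted p = 0.0722. Cyp2j6, named after its values were seen, passed as lower at both times (-0.71 and -0.35), but its 48 h call was lost in 13 of 23 alternatives and stood at 0.042 on TPM.

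Among the single-gene subfamilies, Cyp2u1 and Cyp2r1 went apart. Cyp2u1, a hydroxylase of long-chain fatty acids, had 5.86, 9.18, 9.46, 10.4 and 9.51 FPKM in sham, 1.89, 2.60 and 3.36 in PHx24, and 1.85, 3.04 and 5.46 in PHx48. Every resected library lay below every sham library, and Cyp2u1 fell by -1.71 ± 0.23 at 24 h (adjusted p = 4.57e-06, edgeR) and -1.32 ± 0.23 at 48 h (adjusted p = 6.87e-05). Cyp2r1, a vitamin D 25-hydroxylase, had 5.67 to 11.4 FPKM in sham, 4.59 to 11.2 in PHx24 and 5.98 to 13.3 in PHx48. The groups overlapped and neither test passed (-0.12 ± 0.21 and -0.01 ± 0.21, adjusted p = 0.683 and 0.975).

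**Figure D3:**
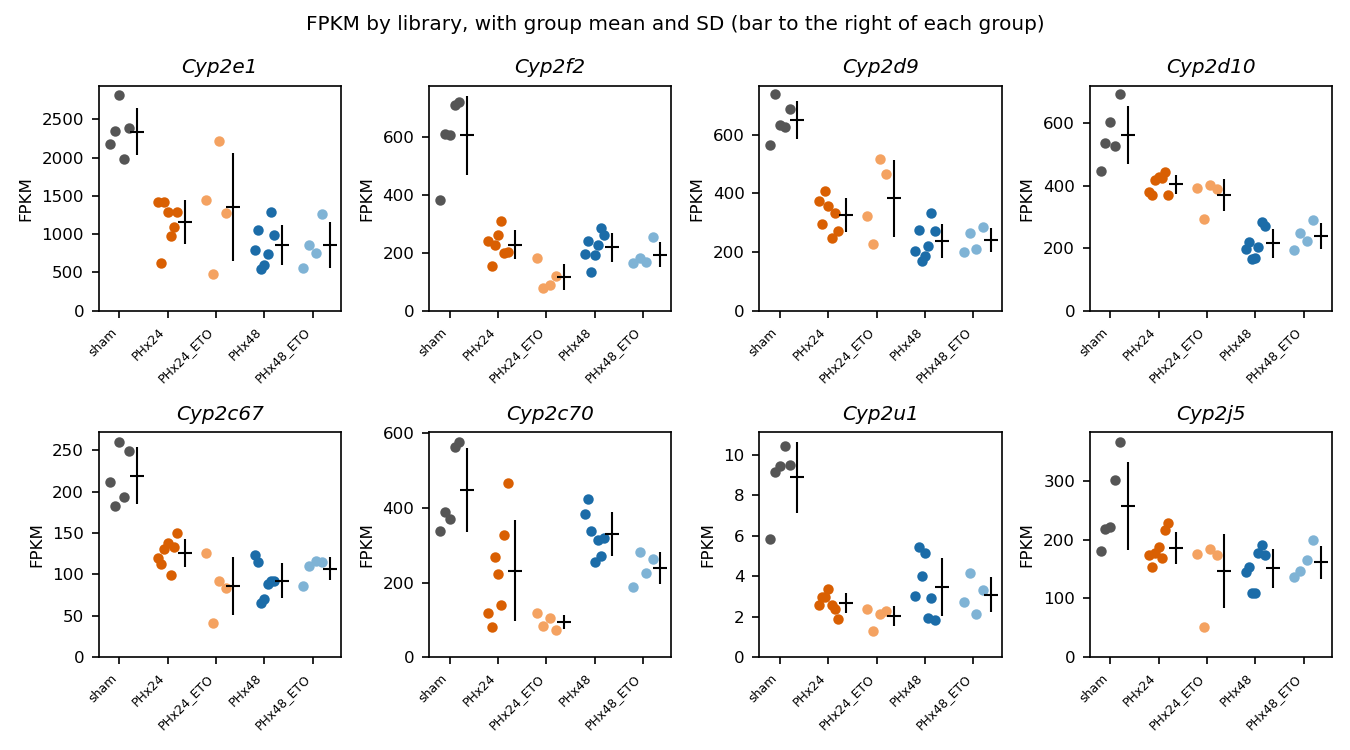
FPKM of 8 members in each library (y axes, 1 linear scale per panel from 0) by group (x axes), with the group mean and SD as a bar beside each group. Cyp2e1, Cyp2f2, Cyp2d9, Cyp2d10, Cyp2c67 and Cyp2u1 show the PHx24 and PHx48 points below all 5 sham points, while Cyp2c70 and Cyp2j5 overlap.

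The Cyp2c subfamily was the largest and moved in both directions. Its 14 clustered members lie on chromosome 19 (chr19:39007019-40187333), with Cyp2c23 apart at chr19:44005022-44029208, and 13 of the 15 were tested. At 24 h 3 rose and 4 fell, and at 48 h 2 rose and 4 fell. Over all genes tested, 19.1% were higher and 15.8% lower at 24 h, and 19.5% and 17% at 48 h. Summed over the subfamily the FPKM was 1881 ± 373 (SD, n = 5) in sham, 1634 ± 448 (n = 7) in PHx24 and 1329 ± 235 (n = 7) in PHx48.

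Cyp2c55 and Cyp2c39 rose at both times. Cyp2c55, which hydroxylates arachidonic acid and is known to be inducible through CAR and PXR, had 6.55, 8.09, 5.54, 4.76 and 4.40 FPKM in sham. It had 8.87, 24.6 and 46.2 in PHx24 and 16.1, 26.1 and 51.7 in PHx48, so that every PHx24 and PHx48 library lay above all sham libraries. The log2 fold changes were 2.12 ± 0.49 (adjusted p = 0.00154, edgeR) and 2.32 ± 0.50 (adjusted p = 0.000649). Cyp2c39, which acts on retinoic acid, stayed low throughout. Its values were 0.0325, 0.228, 0.151, 0.424 and 0.336 FPKM in sham, 0.388, 1.09 and 1.76 in PHx24 and 0.645, 1.34 and 1.74 in PHx48. The 1 overlap was between a PHx24 library and the top of sham, and the log2 fold changes were 2.29 ± 0.41 and 2.36 ± 0.41 (adjusted p = 0.000102 and 5.73e-05).

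Cyp2c29, an abundant member that is also inducible through CAR, rose at 24 h. Sham values were 322, 391.7, 310.4, 276 and 296 FPKM, PHx24 values 178, 641 and 908, and PHx48 values 200.1, 337 and 491. Apart from PHx24 2 at 178, all PHx24 libraries lay above all sham libraries. The log2 fold change was 1.004 ± 0.37 (adjusted p = 0.0385, edgeR) at 24 h, a call lost in 13 of 23 alternatives, and 0.09 ± 0.36 (adjusted p = 0.875) at 48 h.

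Cyp2c70, which makes the mouse-specific muricholic bile acids, fell at 24 h. Its FPKM were 337, 389.8, 371, 563 and 576 in sham, 80.9, 222 and 466.04 in PHx24 and 256, 319 and 424 in PHx48. Sham overlapped both groups, with log2 fold changes of -0.93 ± 0.28 (adjusted p = 0.0118, edgeR; 0.0542 with only these groups in the fit) at 24 h and -0.42 ± 0.28 (adjusted p = 0.258) at 48 h. The PHx24 libraries spread more widely than those of the other groups.

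A block of 4 neighbours, Cyp2c67, Cyp2c68, Cyp2c40 and Cyp2c69, fell together at 48 h. Cyp2c67 had 211, 182, 260.4, 193 and 248.97 FPKM in sham, 99.3, 131 and 149.9 in PHx24, and 65.8, 91.7 and 123 in PHx48, with sham apart from both. It fell at 24 h (-0.78 ± 0.18, adjusted p = 0.00188, edgeR) and at 48 h (-1.23 ± 0.18, adjusted p = 1.02e-05). Cyp2c68 had 111 to 276 FPKM in sham and 52.4 to 93.5 in PHx48 (-1.12 ± 0.25, adjusted p = 0.000921). Cyp2c40 had 8.91 to 51.3 and 3.20 to 10.3 (-1.90 ± 0.40, adjusted p = 0.000596), and Cyp2c69 3.12 to 18.3 and 0.949 to 4.23 (-1.90 ± 0.49, adjusted p = 0.0032). The last 2 overlapped between the groups. At 24 h Cyp2c68, Cyp2c40 and Cyp2c69 did not pass (-0.56, -0.62 and 0.17). The 4 are near copies: Cyp2c69 shares 35.4% of its 100-base windows with another gene, Cyp2c40 34.4%, Cyp2c67 23.7% and Cyp2c68 19.8%. How the counting treated reads that match several places is not given in the sources used here, so the split of reads among the 4 is uncertain.

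The promoters of this block are shown because the neighbours also share letters there. The letters CAAAGTCCA, a site of the hepatocyte factor HNF4A, were searched on both strands in the 250 bases before each start in RefSeq (GRCm38.p6), where 43 members have an entry, with 45 promoters in all. They occur in 0.384% of all 32851 promoters and in 13.3% of the members' promoters, namely 6, all of them Cyp2c. The 59 bases around the match are given on the gene's strand, with the match in capitals.
Cyp2c67: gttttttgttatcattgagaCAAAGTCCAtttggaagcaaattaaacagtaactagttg
Cyp2c68: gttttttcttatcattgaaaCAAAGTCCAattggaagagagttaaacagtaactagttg
Cyp2c40: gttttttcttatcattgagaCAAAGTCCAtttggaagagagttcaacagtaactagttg
Cyp2c69: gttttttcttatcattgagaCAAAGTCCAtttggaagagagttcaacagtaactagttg
Cyp2c65: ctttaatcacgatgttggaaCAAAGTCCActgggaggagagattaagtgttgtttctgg
Cyp2c70: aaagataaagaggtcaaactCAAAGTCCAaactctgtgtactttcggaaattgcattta
The stretches lie at chr19:39649129-39649187 (Cyp2c67), chr19:39741140-39741198 (Cyp2c68), chr19:39812821-39812879 (Cyp2c40) and chr19:39886806-39886864 (Cyp2c69), all on the minus strand. Those of Cyp2c65 and Cyp2c70 are at chr19:39060870-39060928 on the plus strand and chr19:40187312-40187370 on the minus strand. A match is a description of the letters and says nothing of binding. The stretches of Cyp2c40 and Cyp2c69 are identical. Aligned over 250 bases, the promoters of Cyp2c68 and Cyp2c69 had 14 mismatches and 8 gap positions. Those of Cyp2c40 and Cyp2c69 had 3 and 60, and those of Cyp2c67 and Cyp2c68 had 14 and 96. The 4 matches of the block therefore lie in related copies and are not independent. The share of 13.3% counts each copy, so it cannot be read as an enrichment or tied to the fall at 48 h. Of the 6, Cyp2c70 did not pass at 48 h and Cyp2c65 was not tested. Hnf4a itself had 86.6 to 187 FPKM in sham, 114 to 164 in PHx24 and 90.2 to 128 in PHx48 and passed at neither time (0.02 ± 0.13 and -0.21 ± 0.13, adjusted p = 0.922 and 0.212, edgeR).

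In subfamily Cyp1a, Cyp1a1 and Cyp1a2 lie side by side (chr9:57676937-57703824) and behaved differently. Cyp1a1, the polycyclic hydrocarbon hydroxylase and the classic target of the aryl hydrocarbon receptor AHR, had 1.44, 2.99, 0.197, 0.332 and 0.602 FPKM in sham. It had 0.340, 5.43 and 10.8 in PHx24 and 0.299, 0.532 and 0.757 in PHx48. All PHx24 libraries but PHx24 2, at 0.340, and PHx24 5, at 1.71, lay above all sham libraries. Cyp1a1 rose at 24 h by 2.36 ± 0.75 (adjusted p = 0.0162, edgeR) and was lower at 48 h than at 24 h by -3.57 ± 0.71 (adjusted p = 0.00132). Against sham it did not pass at 48 h (-1.20 ± 0.75, adjusted p = 0.219).

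Cyp1a2, which oxidises caffeine and is typical of pericentral hepatocytes, passed at neither time. It had 439, 484, 424, 392.3 and 402 FPKM in sham, 58.7, 551 and 875 in PHx24 and 242, 388 and 519.6 in PHx48, with log2 fold changes of 0.28 ± 0.44 and -0.12 ± 0.43 (adjusted p = 0.656 and 0.854, edgeR). The promoter of Cyp1a1 is shown because Cyp1a1 is an AHR target. The 250 bases before its start hold the AHR core GCGTG 1 time, 54 to 50 bases before the start, and the TATAAA letters further on, both in capitals.
Cyp1a1: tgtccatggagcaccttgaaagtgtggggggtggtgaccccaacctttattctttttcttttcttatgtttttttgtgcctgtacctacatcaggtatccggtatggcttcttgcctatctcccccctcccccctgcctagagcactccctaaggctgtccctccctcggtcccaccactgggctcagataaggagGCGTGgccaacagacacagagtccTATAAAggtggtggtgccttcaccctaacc
This window is chr9:57697363-57697612 on the plus strand. GCGTG occurs in 28.2% of all promoters and in 20% of those of the members, so these letters are common. The receptor gene Ahr rose at 24 h, from 3.58 to 6.11 FPKM in sham to 9.26 to 14.0 in PHx24 (1.35 ± 0.25, adjusted p = 0.000155, edgeR), and did not pass at 48 h (0.53 ± 0.24, adjusted p = 0.0909). Of 4 other AHR targets tested, Nqo1, a quinone reductase that is also an NRF2 target, rose at both times (1.38 and 2.27), and Tiparp, Ugt1a6a and Ugt1a6b passed at neither.

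The Cyp2a subfamily lies with Cyp2b, Cyp2f, Cyp2g, Cyp2s and Cyp2t in a cluster on chromosome 7 (chr7:25802475-27158668) with 13 members and 8 tested. In that cluster 4 members rose and 1 fell at 24 h, and the same counts held at 48 h. The members that rose passed the filter only through resected libraries, so these counts lean upwards. Of all genes tested, 19.1% rose and 15.8% fell at 24 h, and 19.5% and 17% at 48 h. Cyp2a4, a steroid hydroxylase typical of female liver, had 0.340, 0, 0.356, 0 and 0.834 FPKM in sham, 0.105, 0.306 and 2.12 in PHx24 and 0.957, 5.10 and 11.3 in PHx48. Every PHx48 library lay above every sham library. Cyp2a4 rose at 48 h by 4.17 ± 0.91 against sham (adjusted p = 0.000744, edgeR) and by 3.30 ± 0.73 against PHx24 (adjusted p = 0.00343). At 24 h it had 0.87 ± 0.92 (adjusted p = 0.494). It was the only tested member that passed as higher at 48 h than at 24 h. Cyp2b9 did so when PHx24 5 was left out (3.84, adjusted p = 0.000711).

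Cyp2a4 has a near copy, Cyp2a5, the coumarin 7-hydroxylase (chr7:26835305-26843548), and the 2 coding sequences are 98.4% identical. Cyp2a5 is named here after its values were seen. It was at 108, 126, 108, 87.0 and 92.1 FPKM in sham, 66.3, 105 and 383 in PHx24 and 81.7, 165 and 342 in PHx48, and passed against sham at neither time (0.58 and 0.74). The coding stretch 596 to 655 is shown because it holds 4 of the 23 bases in 1482 that tell the copies apart, in capitals.
Cyp2a4: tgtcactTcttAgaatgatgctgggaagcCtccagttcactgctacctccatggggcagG
Cyp2a5: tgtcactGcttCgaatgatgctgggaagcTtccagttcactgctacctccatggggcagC
Of the 100-base windows of Cyp2a4, 11.2% are shared with another gene, so reads there cannot be assigned from their letters. The share of Cyp2a5 reads counted for Cyp2a4 was not tested. The Cyp2a5 mean was 104 FPKM in sham and 173 in PHx48, and the Cyp2a4 mean went from 0.306 to 5.49. The promoters are 97.6% identical (245 identities, 4 mismatches and 2 gap positions). The 250 bases before each start are shown, with GTTAAT, TTGCNNAA and TATAAA matches in capitals.
Cyp2a4: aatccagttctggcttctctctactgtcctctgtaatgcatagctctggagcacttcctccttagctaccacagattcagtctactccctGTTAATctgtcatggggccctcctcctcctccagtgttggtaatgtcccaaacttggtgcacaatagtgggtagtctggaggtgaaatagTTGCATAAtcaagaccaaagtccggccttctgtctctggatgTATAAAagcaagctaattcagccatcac
Cyp2a5: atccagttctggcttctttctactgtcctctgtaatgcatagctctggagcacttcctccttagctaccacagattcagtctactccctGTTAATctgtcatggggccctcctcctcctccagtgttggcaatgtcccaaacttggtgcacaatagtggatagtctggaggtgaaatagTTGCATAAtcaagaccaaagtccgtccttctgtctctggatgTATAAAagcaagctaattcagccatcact
They lie at chr7:26306942-26307191 and chr7:26835089-26835338, both on the plus strand. All 3 motifs stand in both promoters. Searched on both strands, GTTAAT occurs in 6.43% of all promoters, TTGCNNAA in 9.56% and TATAAA in 12.4%.

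Cyp2a12, a bile acid and steroid 7-hydroxylase, and its near copy Cyp2a22 (97% identical in coding sequence) differed in level and in change. Cyp2a12 had 119, 143, 154, 212 and 215 FPKM in sham, 134, 161 and 215 in PHx24 and 101, 151 and 168 in PHx48 and passed at neither time (-0.01 ± 0.14 and -0.19 ± 0.14, adjusted p = 0.959 and 0.311). Cyp2a22 had 0.206, 0.0200, 0.160, 0.336 and 0.310 FPKM in sham, 0.412, 0.949 and 6.92 in PHx24 and 0.659, 2.08 and 2.98 in PHx48. All resected libraries lay above sham. Cyp2a22 rose by 3.20 ± 0.67 (adjusted p = 0.000543, edgeR) and 3.11 ± 0.67 (adjusted p = 0.000638). It shares only 3.98% of its windows with Cyp2a12.

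Of the 5 Cyp2b members 2 were tested, and both were low in sham. Cyp2b10, the standard readout of CAR activation, had 0.0280, 4.25, 0.130, 0.438 and 0.758 FPKM in sham, 2.22, 5.97 and 43.0 in PHx24 and 1.49, 4.58 and 8.42 in PHx48. Sham 2, the library with pancreas and gut markers, was the 1 sham library within the resected range. Cyp2b10 rose at 24 h (3.25 ± 0.84, adjusted p = 0.00365, edgeR) and did not pass at 48 h (2.03 ± 0.81, adjusted p = 0.0513). The 48 h difference was 3.83 without sham 2 (adjusted p = 0.00184), 3.49 without the 4 libraries with other tissue (adjusted p = 0.0127) and 2.002 with DESeq2 (adjusted p = 0.0314), and it passed in each of these. Cyp2b10 passed at 24 h in each of the 23 alternatives, among them without the 4 libraries with other tissue.

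Cyp2b9, which is typical of female liver, had 0.126, 0.0368, 0.0732, 0.206 and 0.122 FPKM in sham, from 1 to 5 counts a library. It had 0.0315, 0.154 and 9.01 in PHx24 and 0.417, 0.851 and 6.35 in PHx48. The highest PHx24 value belonged to PHx24 5, while the others, at up to 0.316, overlapped sham. The 24 h call (3.64 ± 1.29, adjusted p = 0.0303, edgeR) was lost in 11 of 23 alternatives, and without PHx24 5 the log2 fold change was 0.35 (adjusted p = 0.808). At 48 h every PHx48 library lay above sham (4.19 ± 1.29, adjusted p = 0.0127), with adjusted p = 0.067 without the 4 libraries with other tissue.

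PHx24 5 was the highest PHx24 library in 11 of the 35 members, beside 9 for PHx24 7 and 8 for PHx24 4. It held 43.0 FPKM of Cyp2b10 beside 2.22 to 8.17 in the other PHx24 libraries, 6.92 of Cyp2a22 beside 0.412 to 1.91, and 2.12 of Cyp2a4 beside 0.105 to 0.465. Its Cyp2a5 was 383, beside 66.3 to 205. Cyp2g1, known from olfactory epithelium, stayed low at 0.161 to 0.441 FPKM in sham, 0.110 to 1.27 in PHx24 and 0.322 to 1.46 in PHx48. It passed as higher at both times (1.44 ± 0.52 and 1.37 ± 0.52, adjusted p = 0.0343 and 0.0419, edgeR), calls lost in 9 and 12 of 23 alternatives. Markers of olfactory, lung and skin epithelium summed to 1.05 to 1.34 FPKM in sham, 0.803 to 1.90 in PHx24 and 1.0103 to 2.01 in PHx48. Their part in the Cyp2g1 result was not tested.

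**Figure D4:**
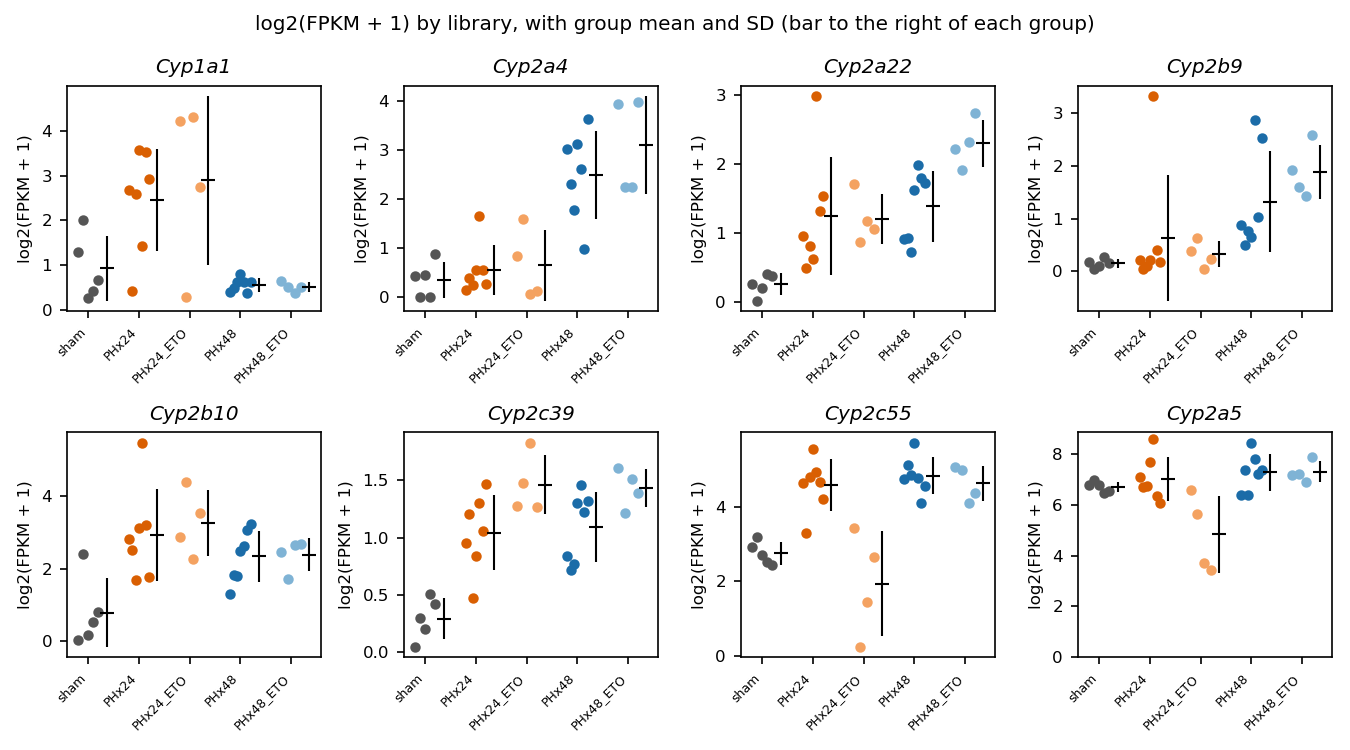
Log2 of FPKM plus 1 (y axes, 1 scale per panel) for 8 low or variable members in each library by group (x axes), with the group mean and SD as a bar beside each group. Cyp2a22 and Cyp2c55 lie above sham in every PHx24 and PHx48 library, Cyp2a4 in every PHx48 library, and PHx24 5 stands alone at the top for Cyp2b9, Cyp2b10 and Cyp2a22.

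Of the 16 members that were not tested, Cyp2b23, Cyp2j7, Cyp2j11, Cyp2j12 and Cyp2j13 had no count in any library. Of the other 11, 4 had their highest value in sham 2. There Cyp2c65 had 14.1 FPKM from 393 counts, beside at most 0.300 elsewhere, and Cyp2c66 had 2.34 FPKM from 66 counts, beside 0 in all 26 other libraries. Sham 2 was also highest of the sham group in exocrine pancreas markers, at 733 summed FPKM beside a group median of 1.91, and in gut markers, at 226 beside 97.1. Their part in these values was not tested. Cyp1b1, an AHR target of extrahepatic tissue, had 0.0579 to 0.518 FPKM, Cyp2s1 0.0137 to 1.05, again highest in sham 2, and Cyp2t4 0 to 0.330. The remaining members of this set, Cyp2b13, Cyp2b19, Cyp2d12, Cyp2d34, Cyp2j8 and Cyp2w1, were at most at 0.274. Cyp2w1 had 1 count in all, in sham 2.

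Between 24 h and 48 h without drug, 6 tested members passed, 1 higher and 5 lower (2.86% and 14.3%). Over all genes tested 6.19% were higher, 5.41% lower and 11.6% either. Cyp2a4 rose, and Cyp1a1, Cyp2c69 (-2.07 ± 0.46, adjusted p = 0.00366, edgeR), Cyp2c40 (-1.28 ± 0.38, adjusted p = 0.0261), Cyp2d10 and Cyp2d26 fell. The Cyp2c40 call was lost in 7 of 25 alternatives, among them without PHx24 7 (adjusted p = 0.0774, the highest of the 25), without PHx48 3 and without PHx48 5. With PHx24 2 and PHx24_ETO 2 left out, 11 members were lower and 1 higher (chosen after seeing the data). The 6 added were Cyp1a2, Cyp2c29, Cyp2c67, Cyp2c68, Cyp2d9 and Cyp2d40.

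Etomoxir was compared at each time with the resected group that had no drug. At 24 h 3 tested members passed, all lower (8.57%, beside 1.33% of all genes lower, 1.58% higher and 2.9% either). On TPM the split of all calls went from 195 higher and 164 lower to 100 and 269, with 4 members lower. The unadjusted p was below 0.05 in 7 members, all lower. The members' median log2 fold change was -0.20, against 0.01 over all genes tested. The 3 were Cyp2c55, Cyp2c70 and Cyp2f2, and in each of them the PHx24_ETO values overlapped the PHx24 range.

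Cyp2c55 had 9.86, 0.184, 1.71 and 5.29 FPKM in PHx24_ETO against 8.87 to 46.2 in PHx24, a log2 fold change of -2.59 ± 0.55 (adjusted p = 0.0139, edgeR). Of the 4 treated libraries 2 lay below the sham range of 4.40 to 8.09, 1 within and 1 above it. Cyp2c70 had 118, 82.5, 104 and 73.7 FPKM against 80.9 to 466.04 (-1.31 ± 0.32, adjusted p = 0.0263); 3 of the treated libraries lay within the untreated range. Cyp2f2 had 181, 79.5, 90.04 and 118 FPKM against 154 to 308 (-0.97 ± 0.22, adjusted p = 0.019). These calls depend on the libraries and on the fit. None of the 3 passed when PHx24_ETO 3 was left out or when the fit held only the compared groups, and without PHx24_ETO 2 Cyp2c55 alone passed (-2.19). With DESeq2 5 members passed, adding Cyp2a5 and Cyp2g1. Without PHx24 2 the same 5 passed, and without PHx24_ETO 1 also Cyp2c23 and Cyp2c67. Kupffer cell markers summed to 36.05 to 77.7 FPKM in PHx24_ETO and 78.03 to 146 in PHx24, with no overlap. The gut epithelium markers summed to 123 to 147 and 63.7 to 122, also with no overlap. That gut sum was at least 61.8 in every library, and only 2 of its 4 markers passed the filter. It therefore cannot be read as gut tissue. Monocyte markers had medians of 11.01 and 34.9. Their part in these results was not tested.

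Cyp2a5 and Cyp2g1 were the members just beyond the threshold. Cyp2a5 had 95.2, 48.4, 12.04 and 9.86 FPKM in PHx24_ETO, below its sham range in 3 of the 4 libraries, with -1.90 ± 0.54 (adjusted p = 0.0543, edgeR). Cyp2g1 had 0.494, 0.0853, 0.142 and 0.158 FPKM and -1.78 ± 0.58 (adjusted p = 0.0871). Cyp2e1, with 1442, 486, 2211 and 1277 FPKM in PHx24_ETO, had 0.20 ± 0.29 (adjusted p = 0.734). Cyp1a1 had 17.7, 0.219, 18.8 and 5.68 FPKM, 2 of them above every library without drug, and 0.86 ± 0.70 (adjusted p = 0.52).

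At 48 h no tested member passed between PHx48_ETO and PHx48 in either direction (edgeR, lowest adjusted p = 0.554). The same was so with DESeq2, and 3 members had an unadjusted p below 0.05, all higher. Over all genes 0.129% were higher, 0.0808% lower and 0.21% either, 16 and 10 genes, or 12 and 18 on TPM. Cyp2a22, at 3.65, 2.79, 4.02 and 5.71 FPKM against 0.659 to 2.98, had the largest difference at 1.203 ± 0.56 (adjusted p = 0.6). Cyp2c55 had 32.6, 30.7, 16.1 and 19.8 FPKM against 16.1 to 51.7 (-0.24 ± 0.49, adjusted p = 0.934), Cyp2c70 187, 282, 225 and 264 against 256 to 424 (-0.47 ± 0.31, adjusted p = 0.753), and Cyp2f2 163, 184, 169 and 256 against 134 to 284 (-0.19 ± 0.22, adjusted p = 0.885).

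The difference between the 2 etomoxir effects, 48 h minus 24 h, was tested as an interaction. It passed in no member (lowest adjusted p = 0.279, edgeR, for Cyp2c55 at 2.35 ± 0.70), nor with DESeq2, and 6 members had an unadjusted p below 0.05, all higher. Over all genes tested 0.0162% were higher, 0% lower and 0.0162% either. Without PHx24_ETO 1 the test passed in 5 members, Cyp2a5, Cyp2c23, Cyp2c55, Cyp2c67 and Cyp2f2, all higher. That an effect passed at 24 h and not at 48 h is therefore not shown to be a difference between the times.

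The partners and regulators of the P450s did not move as 1 group. Por, the reductase that feeds electrons to all of them, rose from 28.3 to 41.9 FPKM in sham to 85.02 to 153 in PHx24 and 52.7 to 86.0 in PHx48 (1.84 ± 0.20 and 0.90 ± 0.19, adjusted p = 2.28e-07 and 0.000543, edgeR). Its groups did not overlap sham. Of the 7 redox partners tested, 1 rose and 4 fell at 24 h, and 1 rose and 1 fell at 48 h, with list medians of -0.24 and -0.15 against 0.01 over all genes. On TPM 2 rose and 1 fell at 24 h and 3 and 1 at 48 h, with medians of -0.03 and 0.20. Beside the list counts here and below, 19.1% of all genes tested rose and 15.8% fell at 24 h. At 48 h these shares were 19.5% and 17%, and list counts near them are not a result about a list. Alas1, the rate-limiting enzyme of heme synthesis, rose from 21.6 to 41.7 FPKM in sham to 61.6 to 137 in PHx24 and 48.2 to 95.2 in PHx48 (1.70 ± 0.24 and 1.26 ± 0.24, adjusted p = 6.45e-06 and 0.000151). In PHx24_ETO it was higher still, at 126 to 259.5 (0.97 ± 0.24 against PHx24, adjusted p = 0.0253, edgeR). Of 12 genes of heme synthesis and breakdown, 5 rose and 2 fell at 24 h and 2 rose and 2 fell at 48 h, with medians of 0.22 and 0.12, and on TPM 7 and 8 rose and none fell. Hmox1, which breaks heme down, rose at 24 h (1.69 ± 0.36, adjusted p = 0.000782, edgeR).

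Over all genes tested, 19.1% rose and 15.8% fell at 24 h, and 19.5% and 17% at 48 h. Of 27 regulators of P450 transcription tested, 3 rose and 5 fell at 24 h, and 2 rose and 9 fell at 48 h. The medians were -0.20 and -0.32. On TPM 4 rose and 4 fell at 24 h and 9 rose and 2 fell at 48 h, with a 48 h median of 0.03. Cebpa, a factor of hepatocyte differentiation, fell from 170.5 to 348 FPKM in sham to 63.3 to 114 in PHx24 (-1.46 ± 0.18, adjusted p = 1.85e-06, edgeR). Nr1i2, which encodes PXR, rose at 24 h (0.90 ± 0.20, adjusted p = 0.00112) and did not pass at 48 h (0.23 ± 0.20, adjusted p = 0.381). Nr1i3, which encodes CAR, had 5.11 to 9.28 FPKM in sham, 6.9996 to 10.1 in PHx24 and 3.09 to 5.39 in PHx48. It did not pass at 24 h (0.18) and fell at 48 h (-0.75 ± 0.15, adjusted p = 0.000397), and it was higher with etomoxir at 24 h (0.58 ± 0.16, adjusted p = 0.0494). Bcl6, a repressor of female-type genes in male liver, fell at 48 h (-1.54 ± 0.49, adjusted p = 0.0162).

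Of 14 other CAR and PXR targets, a list that also holds Por and Alas1, 6 rose and 2 fell at 24 h and 4 rose and 3 fell at 48 h, with medians of 0.43 and 0.32 (6 and 1, and 7 and 2, on TPM). Gstm3, a glutathione transferase, rose from 38.8 to 108 FPKM in sham to 564 to 2053 in PHx24 (4.10 ± 0.51, adjusted p = 1.59e-06, edgeR). In PHx24_ETO it had 33.0 to 192 FPKM, -3.53 ± 0.55 against PHx24 (adjusted p = 0.00165). Cyp3a11, the main Cyp3a of mouse liver, was also lower with etomoxir at 24 h (-1.72 ± 0.23, adjusted p = 0.000523), as was the carboxylesterase Ces2a (-1.04 ± 0.17, adjusted p = 0.00282). These 3 and Alas1, which was higher, were the 4 of the 14 that passed there. Of 21 tested P450s of other families, 3 rose and 9 fell at 24 h and 3 rose and 10 fell at 48 h, with medians of -0.20 and -0.44 beside -0.32 and -0.52 for the members. On TPM 6 rose and 7 fell at 24 h and 6 and 9 at 48 h.

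Because Cyp2d9 is typical of male liver and Cyp2a4 and Cyp2b9 of female liver, genes of both kinds outside the members were counted. Cyp2d9, Cyp2a4 and Cyp2b9 were named because they were called, and the other members were not sorted by sex type. Those not sorted include Cyp2c40 and Cyp2c69, which fell at 48 h (-1.90 each). The named members therefore do not stand for all members of either kind, and no direction is given for female-type members as a set. Of 14 male-predominant genes, 13 fell at 24 h and all 14 at 48 h, with medians of -1.54 and -2.10, and on TPM 12 and 13 fell (-1.39 and -1.78). Hsd3b5 fell from 226 to 405 FPKM in sham to 2.94 to 90.4 in PHx24 and 10.5 to 64.2 in PHx48 (-2.42 ± 0.66 and -3.29 ± 0.68, adjusted p = 0.00544 and 0.000421, edgeR). Of 9 tested female-predominant genes, 4 rose and none fell at each time, with medians of 1.03 and 1.64. Acot3, an acyl-CoA thioesterase, rose at both times (3.07 ± 0.53 and 2.60 ± 0.53, adjusted p = 8.16e-05 and 0.000398, edgeR). The list has 18 genes, and those not tested did not reach the filter. A listed gene below 1 FPKM in every sham library could pass it only through resected libraries. The filter thus favours rises in this list. The sex of the mice is not given in the sources used here, and a difference in sex between groups was not tested.

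Zonation lists were counted because Cyp2e1, Cyp1a2 and Cyp2c29 are pericentral and Cyp2f2 periportal. Their counts stand beside 19.1% higher and 15.8% lower of all genes tested at 24 h, and 19.5% and 17% at 48 h. Of 15 pericentral genes outside the members, 4 rose and 2 fell at 24 h and 1 rose and 2 fell at 48 h, with medians of 0.18 and -0.04 (5 and 1, and 3 and 1, on TPM). Of 16 periportal genes, 3 rose and 4 fell at 24 h and 3 rose and 3 fell at 48 h, with medians of -0.19 and -0.17 (3 and 2, and 6 and 2, on TPM). Glul, the glutamine synthetase of the innermost pericentral cells, passed at neither time (-0.19 ± 0.34 and -0.47 ± 0.34, adjusted p = 0.701 and 0.292, edgeR).

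Low pericentral genes went with the libraries PHx24 2 and PHx24_ETO 2. PHx24 2 was the lowest of its group in 20 of the 35 members and in 12 of the 15 pericentral genes. Its Cyp1a2 was 58.7 FPKM beside 381 to 875 in the other PHx24 libraries, its Cyp2c29 178 beside 534 to 908 and its Glul 115 beside 193 to 296. PHx24_ETO 2 was the lowest of its group in 26 members and in all 15 pericentral genes, with Cyp1a2 at 37.6 beside 303 to 615, Cyp2c29 at 50.7 beside 421 to 644 and Glul at 18.4 beside 166 to 267. At 48 h, PHx48 3 was the lowest of its group in 22 members and in 8 pericentral genes, with 10 members under 50% of the group's median, and it had the highest muscle, pancreas and adipocyte markers of the group. Its members summed to 2911 FPKM, beside a group median of 4109. The part of those tissues in its low values was not tested.

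The members did not all go down in PHx24 2 and PHx24_ETO 2. In PHx24_ETO 2, Cyp2a4, Cyp2b9, Cyp2b10 and Cyp2j9 were the highest of the group, at 2.001, 0.553, 19.8 and 4.68 FPKM, and Cyp2a12 at 204 was highest too. PHx24 2 had neutrophil markers at a summed 74.5 FPKM, beside a group median of 7.25, and was the highest of its group in Kupffer cell, monocyte and cholangiocyte markers. PHx24_ETO 2 had neutrophil markers at 7.77 beside a group median of 5.58. Unlike PHx24 2, it was the lowest of its group in Kupffer cell (36.05 FPKM) and monocyte (9.73) markers. It was also lowest in sinusoidal endothelial (11.8) and stellate cell (20.6) markers, and highest in hepatocyte markers (34788). The part of these cells in the low values was not tested. With both libraries left out, all 51 calls of a member in a comparison kept their direction and their side of the threshold, and against sham 8 members were higher and 14 lower at 24 h and 7 and 18 at 48 h.

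**Figure D5:**
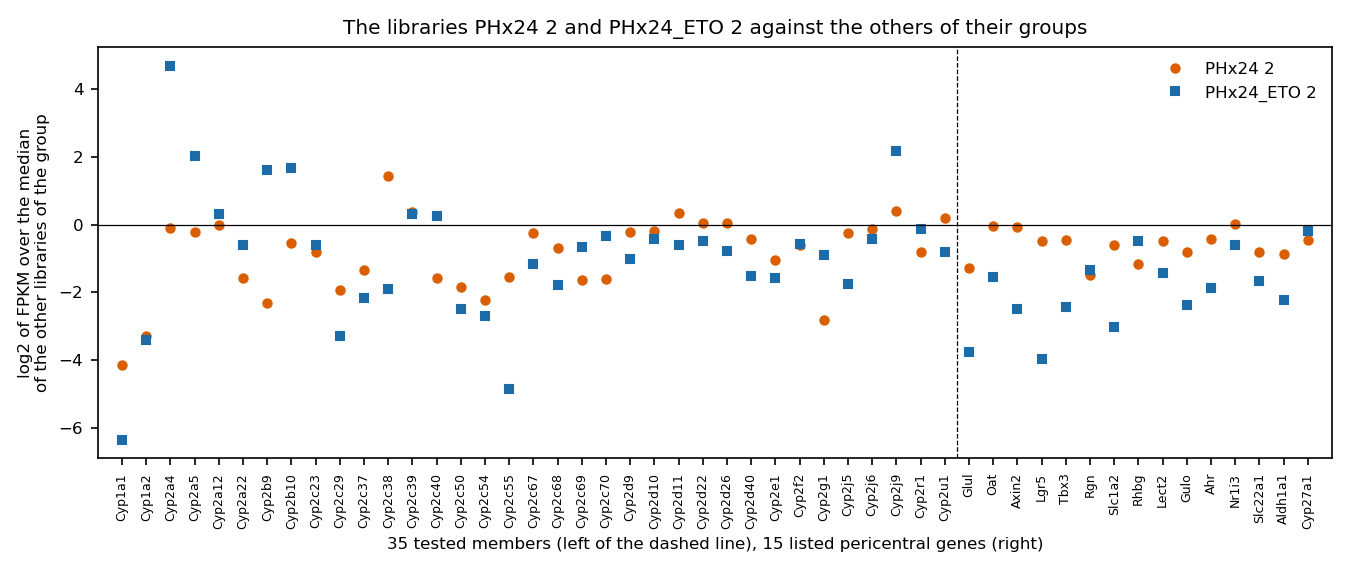
Log2 of the FPKM of PHx24 2 (circles) and PHx24_ETO 2 (squares) over the median of the other libraries of the same group (y axis), for the 35 tested members left of the dashed line and the 15 listed pericentral genes right of it (x axis). Cyp1a1 and Cyp1a2 lie far below 0 in both libraries, the squares are below 0 for all 15 pericentral genes, and Cyp2a4, Cyp2a5, Cyp2b9, Cyp2b10 and Cyp2j9 lie above 0 in PHx24_ETO 2.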

How the data were processed

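Liver polyadenylated RNA of 27 samples was sequenced. Per the submitters' processing notes, the tools named, with no role stated, were DESeq2 1.20.0, featureCounts 1.5.0-p3, HISAT2 2.0.5, fastp and CASAVA 1.8, and the genome build was GRCm38 (mm10). No source used here states the use of strand or the treatment of reads that match several places. The authors deposited read counts per gene and FPKM values per gene. The deposited FPKM follow from the counts, the gene length and a scaling factor per library that differs from the summed counts and whose origin is not given. Ranges of single genes, and whether they overlap, are given on that FPKM scale. Total counts were 14903757 to 18446372 per library.

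Counts of genes with at least 1 FPKM in at least 4 libraries were fitted with edgeR 4.0.16 (quasi-likelihood, TMM scaling, R 4.3.3) over all 27 libraries, with p-values adjusted over 12376 genes and a threshold of 0.05. SE is the log2 fold change divided by the root of the F statistic. DESeq2 1.42.0, and limma 3.58.1 on log2 values with pseudocounts of 1 and 0.1, were alternatives, with other filters, fits and left-out libraries. The fitting code was tested on simulated data. The named members were the most abundant of each subfamily and those called with a log2 change of at least 1. The members and lists were chosen with earlier results of these data known.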

Additional observations from a re-analysis of the deposited data

Results flagged for a closer look

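In 12 of 135 groups of libraries checked (8.89%), 1 library lay far from the others of its group. The measure was its gap to the nearest library over the range of the group. A chance rate of about 1 in 20 would need independent and normally spread values. Members of the same library are not independent, so the share is not read as an excess. PHx24 5 was high in Cyp2a4 (2.12 FPKM, others 0.105 to 0.465), Cyp2a22 (6.92, others 0.412 to 1.91), Cyp2b9 (9.01, others 0.0315 to 0.316) and Cyp2b10 (43.0, others 2.22 to 8.17). PHx24_ETO 2 was low in Cyp2d10 (293 FPKM, others 389.8 to 403) and Cyp2j5 (51.8, others 173 to 184) and high in Cyp2j9 (4.68, others 0.750 to 1.15). Cyp2b10 was high in sham 2 (4.25 FPKM, others 0.0280 to 0.758). Cyp2c69 was high in PHx24 7 (27.4 FPKM, others 3.18 to 11.6) and Cyp2g1 in PHx48_ETO 4 (1.60, others 0.422 to 0.501). Cyp2u1 was low in sham 1 (5.86 FPKM, others 9.18 to 10.4). The summed FPKM of the members was low in PHx24 2 (3262, others 5604 to 6399).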

How the results depend on the processing

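The number of members higher at 24 h than in sham was 8 and became 5 with limma on log2(FPKM + 1), with limma on log2(FPKM + 0.1) and without the 4 libraries with other tissue. The number higher at 48 h than at 24 h was 1, and became 4 on TPM and 2 with only the compared groups in the fit. The number lower there was 5, and became 9 with only the compared groups and 11 without PHx24 2 and PHx24_ETO 2. Members lower with etomoxir at 24 h numbered 3, with 5 by DESeq2 and 0 with only the compared groups. On TPM the 48 h change against sham turned sign for Cyp2d26 (0.021) and Cyp2j6 (0.042). The causes were not tested. DESeq2 size factors and the DESeq2 test kept the direction and the call of all 51 called values.

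Leaving out 1 library at a time, the counts ranged from 5 to 8 higher and 12 to 14 lower at 24 h, 5 to 7 and 13 to 15 at 48 h, and 1 to 2 and 4 to 6 between the times. The 5 came without sham 3 or PHx24 5, and the 2 without PHx24 5, PHx24 7 or PHx48 4. With etomoxir at 24 h the lower count ranged from 0 (without PHx24_ETO 3) to 7 (without PHx24_ETO 1) with 0 higher, and at 48 h both stayed 0. The difference between the etomoxir effects ranged from 0 to 5 higher and stayed at 0 lower.

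Replicate numbers did not pair the samples: same-numbered libraries had a median deviation correlation of 0.020 (-0.232 to 0.655), and 13 of 45 pairs were over 0.1. With the replicate block, 5 members were higher at 24 h, 2 were higher at 48 h than at 24 h and 1, Cyp2a22, was higher with etomoxir at 48 h.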
